A study of Mus musculus with 15 samples.

Results

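The 9 genes described here mark microglia in their resting, or homeostatic, state: Cx3cr1, Csf1r, P2ry12, P2ry13, Gpr34, Tmem119, Siglech, Olfml3 and Sall1. They were taken as a given list of symbols and matched to the Ensembl identifiers of the count table. All 9 were found among its 55488 rows, and all 9 were among the 24990 genes with enough counts to be tested. Their levels were followed in cerebellum through 15 bulk RNA sequencing libraries of mice. YG8JR is a mouse model of Friedreich ataxia, an inherited disease of nerve, heart and pancreas. One group of YG8JR mice (n = 5) had been given mPPL-001, which are Sca1+ hematopoietic stem and progenitor cells (HSPCs) from the marrow of YG8JR donors, electroporated with Cas9 and the guides UP4 and DN4. Another group of YG8JR mice (n = 4) had been given Mock HSPCs from the same kind of donor, electroporated with both guides but no Cas9. Recipients in both groups were 2.5 to 3 months old when they received 7 Gy of radiation before the graft, and antibiotics were given for 1 month. The remaining groups were YG8JR mice left untreated (n = 3) and WT mice (n = 3), for which the labels name no irradiation and no cells. The labels date the tissue of every group, untreated and WT included, to 6 months after transplant. The series asks whether mPPL-001 protects neurons. Libraries came in batches A and B, which are labels of the submitters with no stated meaning, and each group had libraries in both.

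Microglia are the resident macrophages of the brain. They settle there before birth and renew themselves locally, with little entry from blood. Their survival depends on the receptor tyrosine kinase Csf1r, which binds the cytokines Csf1 and Il34. Neurons display the chemokine Cx3cl1, and microglia read it through Cx3cr1. TGF-beta signalling and the zinc finger transcription factor Sall1 are known to hold microglia in their homeostatic state, in which the nucleotide receptors P2ry12 and P2ry13, the lysophosphatidylserine receptor Gpr34, the membrane protein Tmem119, the lectin Siglech and the secreted glycoprotein Olfml3 are highly expressed. Activated microglia commonly lower many of these genes. Macrophages that come from grafted marrow after irradiation can enter the brain, and are known to express Cx3cr1 and Csf1r but to lack Sall1.

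The sequences below are the 250 bases before the RefSeq start sites of P2ry12 and P2ry13, shown because these 2 receptor genes lie next to each other on mouse chromosome 3 with starts 52.1 kb apart, yet had different values across the libraries. Both are given in the gene's own direction, 5′ to 3′, from the minus strand of build GRCm38.p6. Capitals mark a match to one of the short sequences GAGGAA or GGAAGT, which are the core of sites bound by the macrophage factor Spi1 (PU.1).
P2ry12, chr3:59262986-59263235: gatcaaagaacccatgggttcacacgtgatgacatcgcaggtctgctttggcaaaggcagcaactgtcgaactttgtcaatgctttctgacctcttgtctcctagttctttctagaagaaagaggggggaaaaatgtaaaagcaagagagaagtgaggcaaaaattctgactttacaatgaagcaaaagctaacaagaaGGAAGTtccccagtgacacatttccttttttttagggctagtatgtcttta
P2ry13, chr3:59210883-59211132: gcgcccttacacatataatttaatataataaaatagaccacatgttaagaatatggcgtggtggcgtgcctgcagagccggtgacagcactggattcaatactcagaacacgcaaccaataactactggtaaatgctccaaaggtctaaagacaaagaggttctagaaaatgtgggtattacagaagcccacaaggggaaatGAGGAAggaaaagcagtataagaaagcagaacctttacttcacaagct
The P2ry12 promoter held GGAAGT starting 51 bases before the start site, and the P2ry13 promoter held GAGGAA starting 48 bases before it, both on the gene's own strand. The bases just after the P2ry12 start were not matched to a GENCODE M21 transcript of that gene, unlike those of P2ry13. Positions before the P2ry12 start therefore hold for the RefSeq start only. Both strands were searched, and the motifs share the letters GGAA. Promoters were at hand for 6 of the 9 genes, 8 in all, and 4 of the 8 held a match, the others being GGAAGT in the Siglech promoter and in 1 of 3 Sall1 promoters. The start of that Sall1 promoter was not matched to a GENCODE M21 transcript either. Among 32851 RefSeq promoters of the same length 36.7% held either motif, 23.3% for GAGGAA and 19.7% for GGAAGT, so that a match describes these windows and is no evidence of a site.

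Library totals ran from 16847875 to 38760543 counts, and the 9 genes had between 43 counts (Siglech in WT replicate 2) and 3519 counts (Csf1r in untreated YG8JR replicate 2) per library. Levels are given as CPM, the usual per-library scale for counts, here relative to library totals scaled by the TMM method. The labelled tissue was uneven. Genes of granule neurons, the main neurons of the cerebellum, summed to 140 to 824 CPM in batch A and to 2191 to 4922 CPM in batch B, whereas genes of brainstem neurons summed to 436 to 1576 CPM in A and 32.5 to 249 CPM in B. Batch was therefore kept as a term in every test. The library labelled WT replicate 3 (batch A) stood apart from the other 2 WT libraries (batch B). Over 3990 genes that separated WT from YG8JR in batch B by more than 1 on the log2 scale, this library carried a slope of 0.132 of that separation, where 1 would be all of it. The genes were picked in batch B and the slope was read in batch A, where the neuron sums above differed. A WT library of batch A need not reach 1, no other was at hand, and the label was not tested. The 7 YG8JR libraries of batch A had slopes of -0.371 to 0.416. Among the 9 genes the library labelled WT replicate 3 was below both untreated YG8JR libraries of its batch in 9 and below all 7 YG8JR libraries in 1, Cx3cr1. Counts of calls against WT are therefore also given without the library labelled WT replicate 3. WT replicate 2 had the lowest total of all libraries, 16847875 counts, and the lowest share of counts from mitochondrial genes, 1.542%. It was among the WT libraries by which the 3990 genes were picked.

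In the count table the genes are ENSMUSG00000024621.16 (Csf1r, chromosome 18), ENSMUSG00000052336.7 (Cx3cr1, chromosome 9), ENSMUSG00000036353.13 (P2ry12, chromosome 3), ENSMUSG00000036362.2 (P2ry13, chromosome 3) and ENSMUSG00000027848.12 (Olfml3, chromosome 3). The others are ENSMUSG00000040229.11 (Gpr34, chromosome X), ENSMUSG00000054675.5 (Tmem119, chromosome 5), ENSMUSG00000051504.18 (Siglech, chromosome 7) and ENSMUSG00000031665.7 (Sall1, chromosome 8). Compared per kilobase of exon, the 9 genes differed in level by less than an order of magnitude. Lengths were those of all GENCODE M21 exons of a gene joined, from 2090 bases for Gpr34 to 6161 for Olfml3. The annotation behind the counts is not given, so the order rests on these lengths. Csf1r was highest at a mean of 9.38 CPM per kb over the 15 libraries, and was above the next gene, Cx3cr1 (6.03 CPM per kb), in 15 of 15 libraries. P2ry12 followed at 4.97, Tmem119 at 4.58, Sall1 at 4.56, Gpr34 at 2.75, P2ry13 at 2.68, Olfml3 at 2.25 and Siglech at 1.59 CPM per kb. Cx3cr1 was above P2ry12 in 12 of 15 libraries and Olfml3 above Siglech in 12. The middle of the order was not fixed, since Tmem119 was above Sall1 in 9 libraries, Sall1 above Gpr34 in 9 and Gpr34 above P2ry13 in 8.

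**Figure D1:**
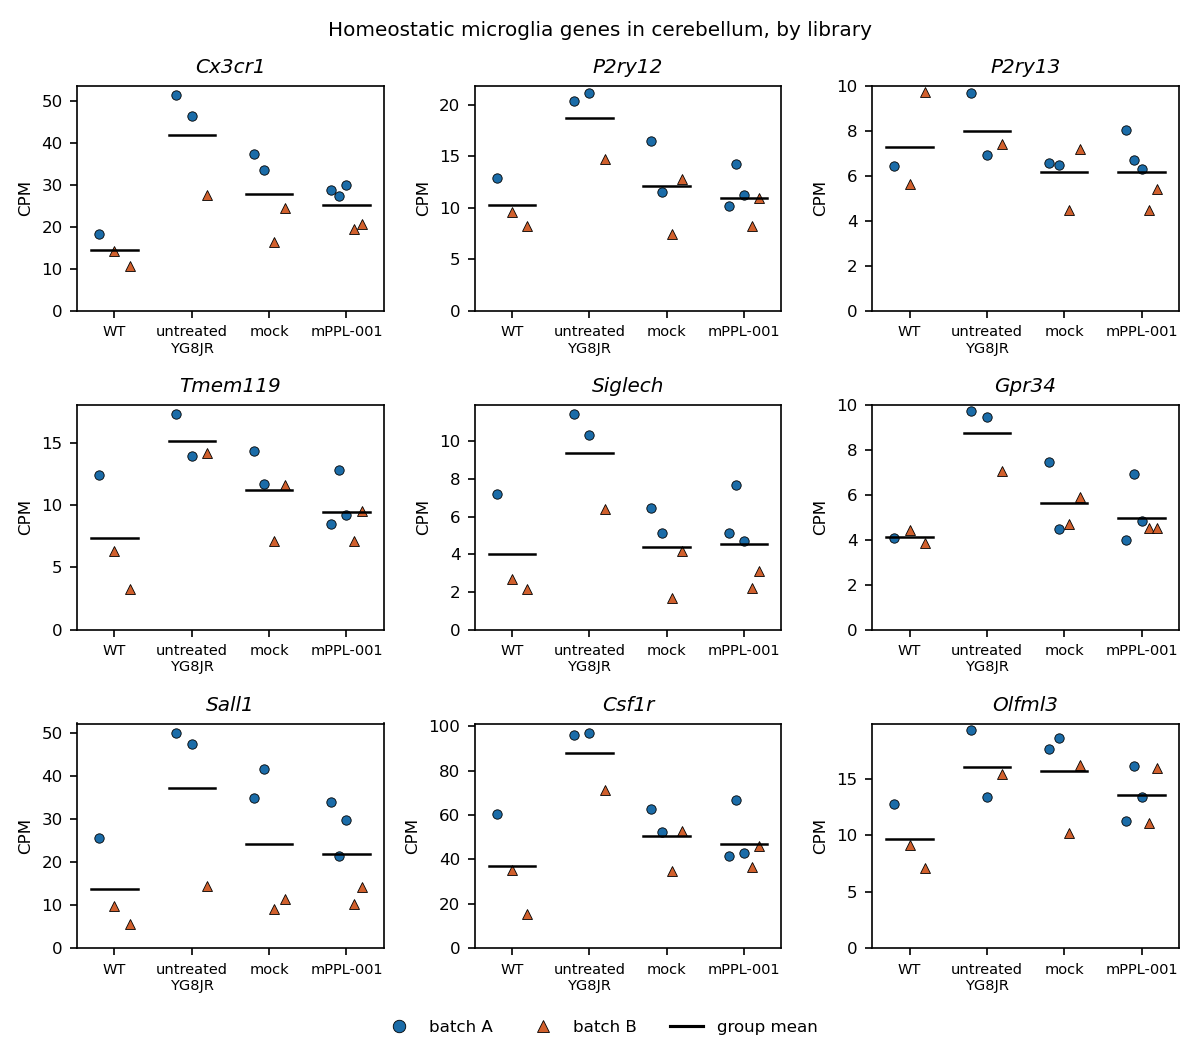
Level of each of the 9 genes in CPM (vertical axes, each starting at 0) in every library, by group; circles are batch A, triangles batch B and bars the group means. Csf1r shows untreated YG8JR libraries at 71.1 to 97.2 CPM above all 9 transplanted libraries at 35.04 to 67.0 CPM, and Sall1 shows all batch A libraries above all batch B libraries.

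Receptors for chemokine and growth factor were read first. Cx3cr1, the fractalkine receptor, stood at 14.2, 10.6 and 18.4 CPM in WT, at 27.6, 51.6 and 46.6 CPM in untreated YG8JR, at 16.5, 37.3, 33.5 and 24.5 CPM in mock and at 28.8, 19.6, 27.5, 30.1 and 20.6 CPM in mPPL-001 (replicates 1 to 3, 4 or 5 in order). All 3 untreated YG8JR libraries were above all 3 WT libraries, and the 5 mPPL-001 libraries also lay above WT without overlap, as they did for 2.89% of all genes. Untreated YG8JR replicate 1, the only one of batch B, was the lowest of its group and overlapped the transplanted libraries, but exceeded the 4 transplanted libraries of its own batch. Csf1r, the receptor for Csf1 and Il34, stood at 35.1, 15.2 and 60.6 CPM in WT, at 71.1, 96.2 and 97.2 CPM in untreated YG8JR, at 35.04, 62.6, 52.3 and 53.0 CPM in mock and at 41.6, 36.8, 67.0, 43.0 and 46.0 CPM in mPPL-001. Untreated YG8JR lay above all other 12 libraries. WT ranged widely, with the library labelled WT replicate 3 about as high as the upper transplanted libraries. Csf1r shares 873 exon bases with Hmgxb3 and Cx3cr1 shares 78 with Gm33858, both on the opposite strand. The use of strand in counting is not given, and Gm33858 had no test result. Hmgxb3 stood at 47.9 CPM in untreated YG8JR and 49.0 CPM in WT (log2 fold change -0.03, edgeR adjusted p = 0.851), and its part in the Csf1r counts was not tested.

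Among the receptors for nucleotides and lipids, P2ry12, which senses ADP released by injured cells, stood at 9.58, 8.20 and 12.9 CPM in WT, at 14.8, 20.3 and 21.1 CPM in untreated YG8JR, at 7.49, 16.4, 11.5 and 12.8 CPM in mock and at 10.2, 8.24, 14.2, 11.2 and 10.9 CPM in mPPL-001. Untreated YG8JR was above every WT and every mPPL-001 library, and overlapped mock through mock replicate 2. P2ry13, another ADP receptor, stood at 5.63, 9.75 and 6.45 CPM in WT, at 7.44, 9.70 and 6.94 CPM in untreated YG8JR, at 4.51, 6.60, 6.48 and 7.20 CPM in mock and at 8.07, 4.47, 6.73, 6.30 and 5.42 CPM in mPPL-001. Its groups overlapped throughout, and its highest library was WT replicate 2, in which 6 of the other genes had their lowest value of batch B. The log2 ratio of P2ry12 to P2ry13 was -0.249 in that library and 0.33 to 1.6 in the other 14. Both genes lie inside Med12l, which is on the opposite strand and shares 9 exon bases with P2ry12 and 0 with P2ry13. Med12l was counted at a mean of 128 CPM in untreated YG8JR and 162 CPM in WT (log2 fold change -0.31, edgeR adjusted p = 0.229). Gpr34 stood at 4.44, 3.87 and 4.10 CPM in WT, at 7.05, 9.73 and 9.49 CPM in untreated YG8JR, at 4.71, 7.47, 4.495 and 5.92 CPM in mock and at 4.01, 4.53, 6.93, 4.85 and 4.51 CPM in mPPL-001. WT was tight (SD 0.286 CPM), and untreated YG8JR lay above all WT and all mPPL-001 libraries.

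Of the surface and secreted markers, Siglech, a sialic acid binding lectin also made by plasmacytoid dendritic cells, had the lowest level. It stood at 2.66, 2.16 and 7.22 CPM in WT, at 6.42, 11.5 and 10.3 CPM in untreated YG8JR, at 1.70, 6.47, 5.15 and 4.17 CPM in mock and at 5.10, 2.19, 7.66, 4.68 and 3.10 CPM in mPPL-001. Batch B libraries were low in each group. The 4 other markers of plasmacytoid dendritic cells summed to 1.40 to 4.96 CPM over all libraries, with at most 1 of 4 at 0 in a library, and to 2.41 to 3.55 CPM in untreated YG8JR. Tmem119 ran from 3.27 to 12.4 CPM in WT, 13.9 to 17.3 CPM in untreated YG8JR, 7.09 to 14.4 CPM in mock and 7.09 to 12.8 CPM in mPPL-001. Olfml3 ran from 7.14 to 12.8 CPM in WT, 13.4 to 19.3 CPM in untreated YG8JR, 10.2 to 18.6 CPM in mock and 11.1 to 16.1 CPM in mPPL-001. Tmem119 separated untreated YG8JR from WT and from mPPL-001, and Olfml3 separated it from WT alone.

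Sall1, the transcription factor, was ordered by batch before group. In batch A it stood at 25.6 CPM in the library labelled WT replicate 3, at 50.0 and 47.4 CPM in untreated YG8JR, at 34.9 and 41.6 CPM in mock and at 34.0, 21.5 and 29.8 CPM in mPPL-001. In batch B it stood at 9.86 and 5.63 CPM in WT, at 14.4 CPM in untreated YG8JR, at 9.22 and 11.4 CPM in mock and at 10.3 and 14.3 CPM in mPPL-001. Every batch A library was above every batch B library, and within each batch an untreated YG8JR library was the highest. Over all 9 genes, the highest library of batch A was an untreated YG8JR library for 9 of 9 (23.5% of all genes), and the highest of batch B was untreated YG8JR replicate 1 for 7 of 9 (5.6%). P2ry13 (WT replicate 2) and Olfml3 (mock replicate 4) were the other two.

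Untreated YG8JR and WT were compared to show how the model differed without a transplant. Cx3cr1 was the 1 gene of the 9 that passed the test, at 41.9 ± 12.7 CPM in untreated YG8JR against 14.4 ± 3.88 CPM in WT (SD, n = 3 each). Its log2 fold change was 1.30 (SE 0.165, 95% confidence interval 0.946 to 1.65, edgeR adjusted p = 0.0143), and it was higher in untreated YG8JR in all 3 libraries and in both batches. Across all genes 0.12% were called higher, 30 of 24990. The other 8 genes did not pass, with adjusted p of 0.113 to 0.883, though all 9 log2 fold changes were positive, as were those of 47.7% of all genes. Their log2 fold changes were 1.15 for Csf1r, 1.00 for Siglech, 1.00 for Gpr34, 0.97 for Tmem119, 0.95 for Sall1, 0.73 for P2ry12, 0.66 for Olfml3 and 0.07 for P2ry13. An unadjusted p under 0.05 in the higher direction was reached by 8 of 9, against 10.8% of all genes. Ranges did not overlap for 6 of 9 (8.17% of all genes), and within each batch taken alone they did not overlap for 8 of 9 (18.4%), all but P2ry13. In bulk tissue, more microglia and more of these transcripts in each microglial cell cannot be told apart. Other lists rose as well, with median log2 fold changes of 1.10 for meningeal fibroblasts (7 of 7 positive) and 0.85 for astrocytes (10 of 10). Endothelium and pericytes had 0.76 (7 of 8) and oligodendrocytes 0.65 (8 of 8). Choroid plexus genes went the other way at -0.42 (6 of 8 negative). None of these genes was called, and the part of tissue make-up in the values of the 9 genes was not tested.

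The call leaned on single libraries. Its size did so less, with the log2 fold change of Cx3cr1 at 1.243 to 1.465 as each library was left out. Without the library labelled WT replicate 3, 5 of the 9 genes were called (Cx3cr1, Tmem119, Siglech, Sall1 and Csf1r), with Cx3cr1 at 1.26 (adjusted p = 0.00575), and the number called over all genes went from 36 to 4096. Without untreated YG8JR replicate 2, none was called and Cx3cr1 stood at 1.24 (adjusted p = 0.0633). Without WT replicate 2, 1 was called, and the median log2 fold change of the 9 genes was 0.829, beside 0.966 with all libraries. Across 29 alternatives the adjusted p of Cx3cr1 ran from 6.38e-09 with DESeq2 to 0.494 in a fit of the 2 groups alone, and 22 of them called it. In the same comparison granule neuron genes had a median log2 fold change of -1.60, with 8 of 8 negative, and brainstem neuron genes a median of 1.41, with 7 of 8 positive, none of them called. With a score of these regions as covariate Cx3cr1 stood at 1.18 (adjusted p = 0.0686).

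**Figure D2:**
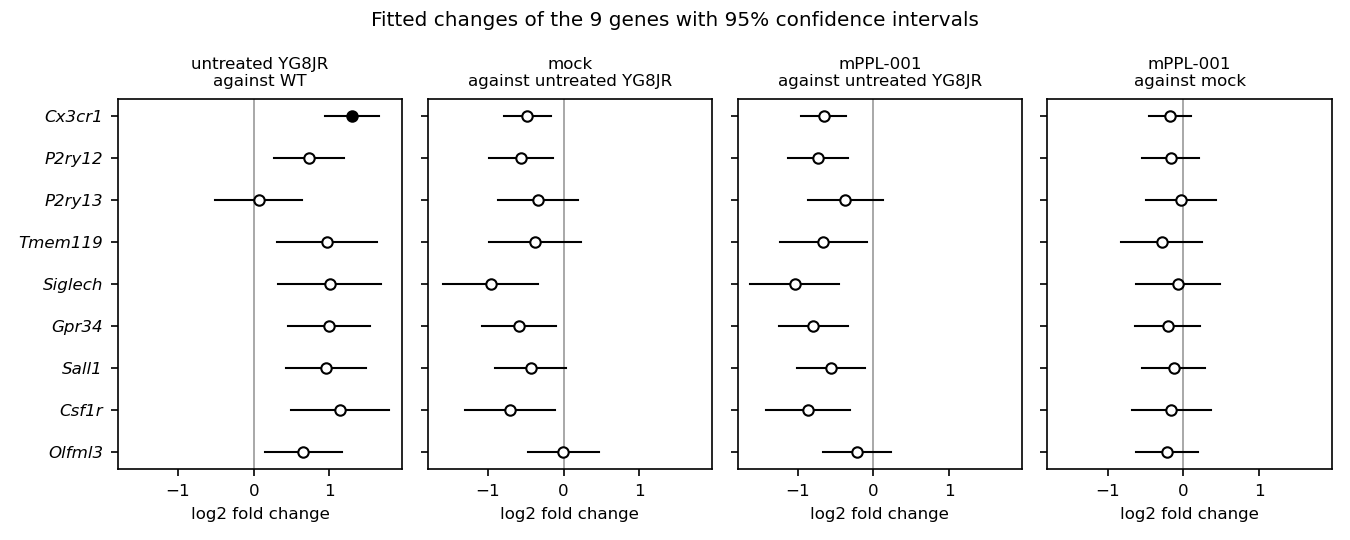
Fitted log2 fold changes (horizontal axes) of the 9 genes in 4 comparisons, from 1 edgeR model with a batch term; points are estimates, lines 95% confidence intervals, and the filled point is the 1 change with an adjusted p under 0.05, Cx3cr1 in untreated YG8JR against WT (1.30). All 9 estimates are above 0 against WT and all 9 are below 0 in each of the other panels.

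Recipients of either transplant were compared with untreated YG8JR, a contrast that holds irradiation, antibiotics and grafted cells together. None of the 9 genes passed the test for mock (0 of all genes called lower, 0%), for mPPL-001 (0 called lower, 0%) or for both transplants pooled (1 called lower, 0.004%). All 9 log2 fold changes were negative in each of these comparisons, which share the untreated YG8JR libraries, against 48.1%, 41.1% and 43.2% of all genes. In mPPL-001 they were -1.04 for Siglech (SE 0.275), -0.86 for Csf1r (SE 0.261), -0.80 for Gpr34 (SE 0.214), -0.73 for P2ry12 (SE 0.186), -0.66 for Tmem119 (SE 0.269), -0.66 for Cx3cr1 (SE 0.139), -0.56 for Sall1 (SE 0.21), -0.37 for P2ry13 (SE 0.231) and -0.22 for Olfml3 (SE 0.209). The smallest edgeR adjusted p was 0.383, for Cx3cr1, and DESeq2 called this 1 gene (adjusted p = 0.0174). In mock the values were -0.96 for Siglech, -0.70 for Csf1r, -0.59 for Gpr34, -0.56 for P2ry12, -0.48 for Cx3cr1, -0.43 for Sall1, -0.38 for Tmem119, -0.34 for P2ry13 and -0.003 for Olfml3, with every edgeR adjusted p at 1 and no call by DESeq2.

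Before adjustment the genes stood further from the table as a whole. A p under 0.05 in the lower direction was reached by 7 of 9 genes in mPPL-001 (1.04% of all genes), by 5 of 9 in mock (0.412%) and by 7 of 9 in both transplants pooled (0.612%). The ranges of mPPL-001 lay below untreated YG8JR for 4 of 9 genes (0.724% of all genes), P2ry12, Tmem119, Gpr34 and Csf1r, and those of mock for 1 of 9 (0.884%), Csf1r. Within each batch taken alone they lay below for 7 of 9 in mPPL-001 (2.43%) and 7 of 9 in mock (4.07%). For all 9 transplanted libraries against the 3 untreated ones, ranges were apart for Csf1r only (0.12% of all genes) at 48.6 ± 11.1 CPM against 88.2 ± 14.8 CPM (SD, n = 9 and n = 3), and within each batch taken alone for 6 of 9 (0.532%). Batch B held a single untreated YG8JR library, so the separation there rests on it. The pooled log2 fold change of Csf1r was -0.78, with a 95% confidence interval of -1.28 to -0.283, and that of Cx3cr1 was -0.57 (-0.836 to -0.299). These intervals are not corrected for the number of genes.

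Edited and mock transplants were compared because both had irradiation and grafted cells, while the labels set them apart by Cas9. The libraries also differed otherwise. Y-linked transcripts had a median log2 fold change of 2.39 (4 of 4 positive) and choroid plexus genes -1.58 (8 of 8 negative), none called. The contrast is therefore not one of the edit alone. None of the 9 genes passed the test, as was so for all 24990 genes (0%), and none had an unadjusted p under 0.05, against 1.48% of all genes in the higher and 0.656% in the lower direction. Ranges overlapped for all 9 (0.264% of all genes lay lower without overlap). DESeq2 and voom also called none of the 9. All 9 estimates were negative (42.7% of all genes) and small, from -0.29 for Tmem119 to -0.03 for P2ry13. For Siglech the sign depended on batch, since the plain means were 4.55 ± 2.10 CPM in mPPL-001 and 4.37 ± 2.02 CPM in mock (SD, n = 5 and n = 4), whereas the fit gave -0.07. The 95% confidence intervals of the 9 estimates reached from -0.826 (Tmem119) to 0.486 (Siglech). For Cx3cr1 the interval was -0.454 to 0.0993, and for Csf1r it was -0.681 to 0.363. Differences within these bounds were not excluded by these libraries.

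Both transplanted groups were also set against WT. In mock, Cx3cr1 was higher than in WT at 28.0 ± 9.36 CPM against 14.4 ± 3.88 CPM (SD, n = 4 and n = 3, log2 fold change 0.82, SE 0.152, edgeR adjusted p = 0.0315), the 1 call among the 9 genes (0.384% of all genes were called higher). In mPPL-001 it stood at 25.3 ± 4.86 CPM (log2 fold change 0.64, SE 0.147, adjusted p = 0.104, n = 5), and no gene of the 9 was called (0.216% of all genes called higher). DESeq2 called 1 in each. The call in mock was lost without any 1 of mock replicates 2, 3 and 4, WT replicate 2 and untreated YG8JR replicates 1 and 3 (adjusted p of 0.0505 to 0.124), and 3 of the 9 genes were called without the library labelled WT replicate 3, when the calls over all genes went from 103 to 4839. Across 29 alternatives its adjusted p ran from 0.000431 to 0.49, and 15 called it. P2ry12 stood at a log2 fold change of -0.0002 in mPPL-001 and 0.17 in mock, Siglech at -0.04 and 0.04, P2ry13 at -0.30 and -0.27, Gpr34 at 0.20 and 0.41, Csf1r at 0.28 and 0.44, Tmem119 at 0.30 and 0.59, Sall1 at 0.39 and 0.52 and Olfml3 at 0.44 and 0.65, none past the test. Positive values were found for 6 of 9 genes in mPPL-001 (51.9% of all genes) and 8 of 9 in mock (48.3%).

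Batch was the other axis along which these genes differed. Sall1 was lower in batch B with a log2 fold change of -1.60 (SE 0.159, edgeR adjusted p = 1.05e-05), Siglech by -1.11 (adjusted p = 0.000937), Cx3cr1 by -0.66 (adjusted p = 0.000255), Csf1r by -0.54 (adjusted p = 0.044) and P2ry12 by -0.43 (adjusted p = 0.0268). That made 5 of 9 called lower, against 14.9% of all genes. Tmem119 (-0.52), Olfml3 (-0.27), Gpr34 (-0.21) and P2ry13 (-0.20) did not pass, and all 9 values were negative (46.1% of all genes). Sall1 was the 1 gene of the 9 whose ranges did not overlap between batches (5.91% of all genes in that direction), at 21.5 to 50.0 CPM in batch A (n = 8) and 5.63 to 14.4 CPM in batch B (n = 7). Sall3, a paralog of Sall1 in the list of microglial transcription factors, was lower in batch B as well, at 2.71 CPM against 25.2 CPM (log2 fold change -3.13, adjusted p = 0.000111). That list did not move as 1. Its median log2 fold change was -0.28 with 7 of 9 negative, and edgeR called 3 lower and 2 higher in batch B (14.9% and 18% of all genes). With the score of granule, Purkinje and brainstem genes as covariate the batch value of Sall1 was -0.47 and that of Cx3cr1 was -0.16, that of Siglech was -1.06, and 0 of 9 were called by edgeR, as was so for all genes. The part of tissue region in the batch difference was not tested further. Each of 5 libraries, mPPL-001 replicate 2, mock replicates 1 and 2, untreated YG8JR replicate 1 and the library labelled WT replicate 3, took the count to 3 of 9 when left out.

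The 9 genes varied together between libraries once the batch mean was taken off, apart from P2ry13. Of the 36 pairs of genes 32 had a positive Pearson correlation over the 15 libraries, with a median r of 0.716, and the points share library depth and tissue. Csf1r and Tmem119 were the closest pair (r = 0.956), P2ry12 was closest to Siglech (r = 0.935) and Cx3cr1 to Sall1 (r = 0.86). P2ry12 lay nearest to the mean profile of the 9 (r = 0.931) and P2ry13 farthest (r = 0.254). The profile includes the gene itself, which raises each r, and differences between groups were left in. Untreated YG8JR replicates 1 and 2 were highest in that profile and WT replicate 2 lowest. Outside the 9, the genes with a closely similar profile among 13920 with at least 1 CPM included Selplg (r = 0.867, Spearman 0.882), the ligand of P-selectin. Klhl6 (r = 0.84), Zfp809, Plek, Hus1, Pwwp2b, Nckap1l, Hax1 and Ptpn6 (r = 0.819) followed. Without the 2 libraries farthest from the median of the profile, untreated YG8JR replicates 1 and 2, r was 0.849 for Selplg and 0.677 for Zfp809.

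Other microglia-enriched genes were read as a list. Fcrls, one of them, averaged 12.2 CPM in untreated YG8JR and 16.1 CPM in mPPL-001. Its log2 fold change of 0.42 was the only positive value of the list in that comparison. Over the list of 10 other microglia-enriched genes the median log2 fold change was 0.61 for untreated YG8JR against WT, with 10 of 10 positive, and -0.32 for mPPL-001 against untreated YG8JR, with 9 of 10 negative. None of the 10 was called in any comparison of groups.

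The ligands of Cx3cr1 and Csf1r were read in the same libraries. Cx3cl1, the neuronal ligand of Cx3cr1, averaged 110 ± 77.2 CPM in WT, 179 ± 79.5 CPM in untreated YG8JR, 155 ± 65.9 CPM in mock and 176 ± 59.3 CPM in mPPL-001 (SD). Csf1 averaged 32.5 ± 12.0, 48.9 ± 6.66, 47.3 ± 9.41 and 45.1 ± 5.85 CPM in the same order, and Il34 7.64 ± 3.70, 10.5 ± 1.66, 8.98 ± 1.42 and 12.0 ± 3.76 CPM. None of the 3 passed the edgeR test in any comparison of groups. The smallest adjusted p was that of Csf1 in mock against WT, with a log2 fold change of 0.50 (unadjusted p = 0.00505, adjusted p = 0.102), and Csf1 stood at 0.49 in untreated YG8JR against WT (unadjusted p = 0.00886, adjusted p = 0.131). For both transplants against untreated YG8JR the ligands stood at 0.05 for Cx3cl1, -0.04 for Csf1 and 0.03 for Il34, beside -0.57 for Cx3cr1 and -0.78 for Csf1r. None of these 5 values passed the test, and the difference between ligands and receptors was not tested. Between batches Cx3cl1 was lower in B by a log2 fold change of -1.08 (adjusted p = 0.00125), with ranges apart, and Csf1 by -0.41 (adjusted p = 0.0063).

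Genes upstream of the homeostatic state were read from lists. The TGF-beta list (Tgfb1, its receptors, the Smad mediators and the activators Nrros, Itgav and Itgb8) had a median log2 fold change of 0.67 for untreated YG8JR against WT with 8 of 9 positive, and of -0.09 for both transplants against untreated YG8JR with 6 of 9 negative. Tgfb1 stood at 8.27 CPM in untreated YG8JR against 3.35 CPM in WT (log2 fold change 1.33, adjusted p = 0.102). The list of microglial transcription factors had medians of 0.68 (9 of 9 positive) and -0.08 (6 of 9 negative). Spi1, also called PU.1, stood at 1.87 CPM in untreated YG8JR and 0.997 CPM in WT, and Irf8 at 5.95 and 2.44 CPM (log2 fold change 1.22, adjusted p = 0.108). None of the 18 genes was called by edgeR in a comparison of groups. The median over all genes was -0.04 for untreated YG8JR against WT and 0.03 for the pooled transplants.

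The 9 genes were also set beside genes that microglia share with other macrophages. The 15 shared genes, among them Aif1, Itgam, Tyrobp, the C1q genes and Cd68, had a median log2 fold change of 1.40 for untreated YG8JR against WT, with 15 of 15 positive and Cd68 called (7.38 against 2.37 CPM, log2 fold change 1.70, adjusted p = 0.0218). For both transplants against untreated YG8JR their median was -0.15, with 11 of 15 negative, beside -0.57 and 9 of 9 for the homeostatic genes. None of either list was called there, and the difference between the lists was not tested. Against WT it was 1.09 for mPPL-001 and 1.18 for mock, with Cd68 and Adgre1 called in both, beside 0.28 and 0.44 for the homeostatic genes. The 0.28 leaned on single libraries, at 0.0144 without WT replicate 2, 0.183 without mPPL-001 replicate 5, 0.188 without mPPL-001 replicate 3 and 0.453 when the library labelled WT replicate 3 was left out, and it was 0.0848 in batch A alone and 0.685 in batch B alone. The mean log2 CPM of the 9 genes minus that of the 15 shared genes was 1.17 ± 0.412 in WT, 0.70 ± 0.355 in untreated YG8JR, 0.23 ± 0.441 in mock and 0.23 ± 0.253 in mPPL-001 (SD, n = 3, 3, 4 and 5). In batch A it was 0.97 in the library labelled WT replicate 3, 0.89 and 0.92 in untreated YG8JR, 0.57 and 0.65 in mock and 0.35 to 0.49 in mPPL-001. In batch B it was 0.90 and 1.65 in WT, 0.29 in untreated YG8JR, -0.21 and -0.09 in mock and -0.06 and -0.01 in mPPL-001. Both batches held untreated YG8JR above every transplanted library, and within batch B WT above untreated YG8JR. Single genes did not all follow this mean. P2ry12 did, at 1.36 in WT, 0.66 in untreated YG8JR, 0.14 in mock and 0.13 in mPPL-001. Olfml3 averaged 0.44 in untreated YG8JR, 0.53 in mock and 0.44 in mPPL-001. Cx3cr1 averaged 1.79 in untreated YG8JR and 1.85 in WT, and Sall1 1.47 and 1.53. This measure is a description over chosen lists and was given no test.

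**Figure D3:**
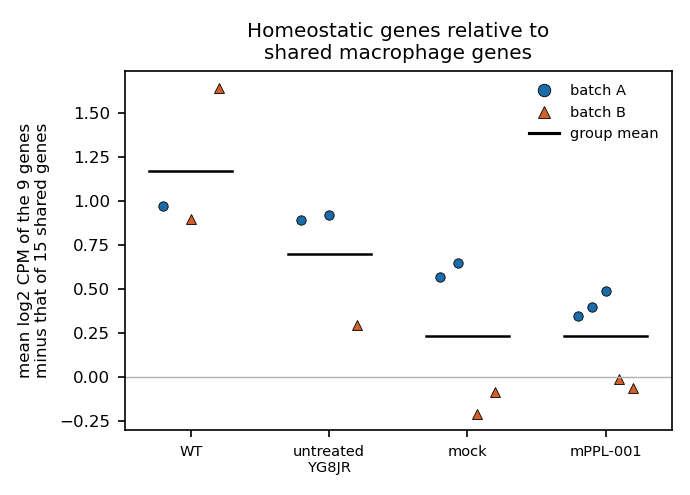
Mean log2 CPM of the 9 homeostatic genes minus that of 15 genes shared by microglia and other macrophages (vertical axis), in every library by group; circles are batch A, triangles batch B and bars group means. Within each batch the transplanted libraries, at -0.21 to 0.65 over both batches, lie below untreated YG8JR, at 0.29 in batch B and 0.89 to 0.92 in batch A.

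Markers of macrophages from marrow and from the borders of the brain were summed in the same libraries. Their 17 genes summed to 22.2 to 52.6 CPM in WT, 67.1 to 69.7 CPM in untreated YG8JR, 93.4 to 192 CPM in mock and 95.3 to 173 CPM in mPPL-001, so that every transplanted library was above every other. Ms4a7, a marker of macrophages that are not microglia, ran from 0.151 to 0.21 CPM in WT, 0.328 to 0.492 CPM in untreated YG8JR and 1.03 to 2.67 CPM in the transplanted groups. Its log2 fold change for both transplants against untreated YG8JR was 1.92 (SE 0.36, edgeR adjusted p = 0.18). Of 16 tested markers, 12 had a positive value in mPPL-001 (58.9% of all genes), 14 in mock (51.9%) and 12 in both pooled (56.8%). None of them was called. Against WT, Ms4a7, Mrc1 and Lyz2 were called higher in mPPL-001 (0.216% of all genes), and 6 of 16 in mock (0.384%), these and H2-Aa among them. At most 1 of the 17 markers was at 0 in any library. Markers of monocytes and neutrophils summed to 3.22 to 15.04 CPM in the transplanted groups and 7.17 to 12.1 CPM in untreated YG8JR, with up to 3 of 10 at 0 in the former. The part of grafted macrophages in the values of the 9 genes was not tested.

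**Figure D4:**
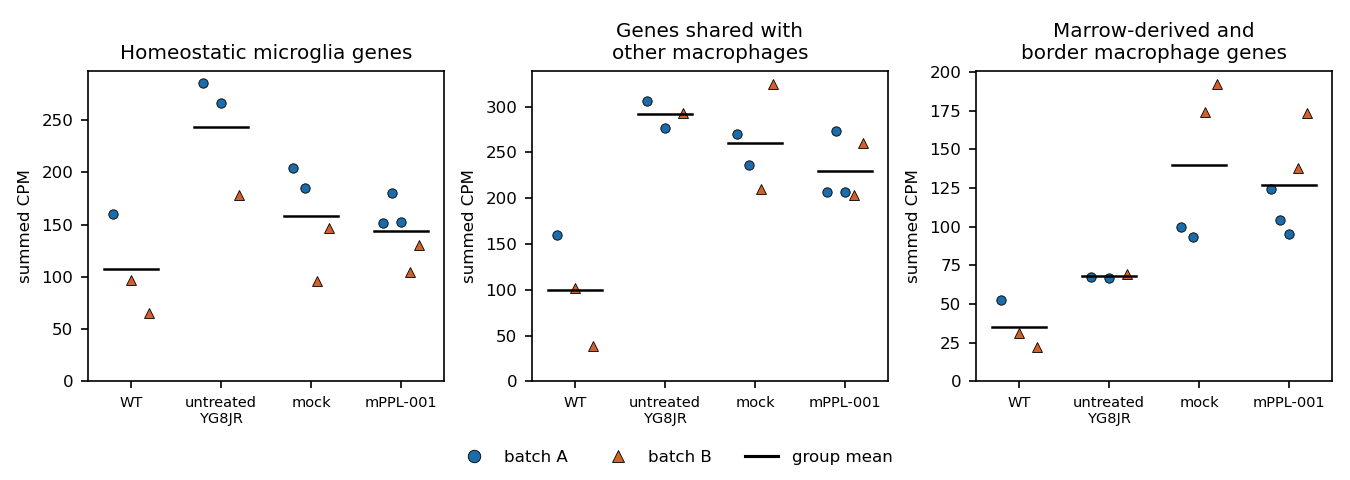
Summed CPM (vertical axes, from 0) of the 9 homeostatic genes, of 15 genes shared by microglia and other macrophages, and of 17 genes of marrow-derived and border macrophages, in every library by group; circles are batch A, triangles batch B and bars group means. The homeostatic genes sum to 178 to 286 CPM in untreated YG8JR and 96.5 to 204 CPM in the transplanted libraries, whereas the marrow and border genes sum to 67.1 to 69.7 CPM and 93.4 to 192 CPM.

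Genes of activated, disease-associated microglia gave a further contrast. Of 14 such genes Clec7a and Gpnmb were called higher in untreated YG8JR than in WT, at 4.07 against 0.352 CPM and 12.4 against 2.40 CPM (edgeR adjusted p = 0.0153 and 0.0374), and the list's median log2 fold change was 0.97, as was that of the 9 homeostatic genes. For both transplants against untreated YG8JR its median was -0.07. Clec7a and Gpnmb were called higher than WT in both transplanted groups, with log2 fold changes of 3.04 and 2.34 in mPPL-001 and 3.39 and 2.23 in mock. Other tissue varied beside these results. Choroid plexus genes, with 8 of 8 positive for both transplants against untreated YG8JR and a median log2 fold change of 1.57, ran from 33.3 to 4796 CPM summed among the 12 YG8JR libraries. Y-linked transcripts were near 0 in 5 libraries, mock replicates 1 and 4, untreated YG8JR replicate 3 and WT replicates 1 and 2. In batch B they thus went with group between WT and untreated YG8JR. Their median log2 fold change for untreated YG8JR against WT was 2.27, with 4 of 4 positive. With their level as covariate the 9 genes had a median of 0.925 in that comparison, and 1 was called. With the choroid plexus or Y-linked level as covariate, all 9 log2 fold changes of the pooled transplants against untreated YG8JR kept their sign and none was called.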

How the data were processed

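Bulk RNA was sequenced from flash-frozen cerebellum after ribosomal RNA depletion, with paired reads and a stranded kit, per the labels' protocols. The authors deposited a table of raw counts per gene, aligned with STAR to GRCm39 per the submitters' processing notes. Which counting tool, strand setting and annotation were used is not given in the sources used here. Samples were grouped by their labels, and nothing names separate cultures or litters, so p-values reflect only how these samples vary, which may be technical. The 22 pairs within groups differed beyond sampling noise (chi-square per gene of 23.2 or more).

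Ensembl identifiers were given symbols from the GENCODE M21 names supplied (55141 of 55487 mouse genes), and 1 row that is no mouse gene was kept in the library totals. Genes were kept by filterByExpr with a minimum count of 10 and a minimum total of 15. One model over all 15 libraries, with group and batch, was fitted with edgeR 4.0.16 in R 4.3.3 (TMM scaling, quasi-likelihood test, robust). P-values were adjusted by Benjamini-Hochberg over all 24990 genes, and 0.05 was the threshold. The common dispersion was 0.11, a coefficient of biological variation of 0.332. Standard errors and 95% confidence intervals come from the same model. Log2 CPM used a prior count of 2. DESeq2 1.42.0 and voom in limma 3.58.1 were alternatives, beside other filters, scaling, covariates, single batches and each library left out. The scripts were tested on simulated data. Named were all 9 genes, the 3 ligands, of each other list up to 4 genes past the threshold with the smallest p or else the first 2 of the list, and genes from the 10 with the most similar profile. Some genes are not reported here. Fcrls, Sall3 and the overlapping genes were picked with their values in view. The genes and lists were chosen with earlier results of these data known.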

Additional observations from a re-analysis of the deposited data

Results flagged for a closer look

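Of the 18 groups of 4 or 5 libraries examined (9 genes in mPPL-001 and mock), 1 held a library far from the rest. Gpr34 stood at 6.933 CPM in mPPL-001 replicate 3, while the other 4 libraries of that group ran from 4.01 to 4.85 CPM, so that the gap was 0.712 of the group's range. Chance flags about 1 in 20 such groups.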

How the results depend on the processing

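For both transplants against untreated YG8JR, all 261 values (9 genes under 29 alternatives) kept their sign and none was called, with the median of the 9 genes between -0.69 and -0.51. For mPPL-001 the 261 values also kept their sign, and DESeq2 called 1 gene. Cx3cr1 against WT was less steady. The number of the 9 genes called for untreated YG8JR against WT, 1 in the report, was 2 with no low-count filter, 7 with DESeq2 and 3 with voom, and 0 with no batch term, with the replicate block, with the region score, in batch A alone, in batch B alone and with only the groups compared, and 0 to 5 when 1 library was left out. For mock against WT, also 1, it was 0 with no batch term, with the replicate block, with the Y-linked, region or choroid plexus covariate, in either batch alone and with only the groups compared, and 0 to 3 when 1 library was left out. DESeq2 called 1 for mPPL-001 against WT. For batch B against A, 5 in the report, it was 3 with the replicate block, 3 with the Y-linked covariate, 0 with the region score and 3 to 6 when 1 library was left out. The cause was not tested.

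Same-numbered libraries were not paired by the labels. Their deviations correlated at -0.547 to 0.438, and 6 of 19 pairs were over 0.1, so the replicate block is an alternative and no design. Over all genes the calls for untreated YG8JR against WT went from 36 to 4096 without the library labelled WT replicate 3, 2163 with DESeq2, 908 with voom, 442 with no filter and 0 with the block. Those for mock against WT went from 103 to 4839 without that library, 2521 with DESeq2, 1372 with voom and 13 with the block. Those for mPPL-001 against WT went from 58 to 1800, 665, 200 and 9 in the same order.

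Small log2 fold changes turned sign. Siglech in mock against WT was -0.0094 with the stricter filter, -0.038 with the replicate block, -0.028 with the choroid plexus covariate, -0.31 in batch A alone, -0.034 with voom and -0.26 to 0.29 with 1 library left out. In mPPL-001 against mock it was 0.057 with no batch term, 0.0055 with the choroid plexus covariate and -0.26 to 0.20 with 1 left out, and in mPPL-001 against WT it was 0.17 with no batch term, 0.15 in batch B alone and -0.17 to 0.23. P2ry12 in mPPL-001 against WT was 0.10 with no batch term, 0.13 in batch B alone and -0.10 to 0.056. Olfml3 in mock against untreated YG8JR was 0.029 with the Y-linked covariate, 0.00091 with the region score, 0.15 in batch A alone, 0.097 with voom and -0.15 to 0.097. In batch A alone P2ry13 was 0.095 in mPPL-001 against mock, 0.12 in mPPL-001 against WT and 0.023 in mock against WT, Tmem119 was -0.29 and Csf1r -0.26 in mPPL-001 against WT, and Csf1r was -0.074 in mock against WT. In batch B alone P2ry13 was -0.020 in untreated YG8JR against WT, and Sall1 was 0.27 and Olfml3 0.045 in mPPL-001 against mock. With 1 library left out P2ry13 ran from -0.12 to 0.42 in untreated YG8JR against WT, from -0.15 to 0.097 in mPPL-001 against mock and from -0.45 to 0.060 in mock against WT, and Csf1r from -0.032 to 0.68 in mPPL-001 against WT.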
